A study of Bos taurus with 28 samples.

Results

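PPARA, PDK4 and ANGPTL4 were examined in the liver of ketotic cows, made so by restricted feed, and of healthy cows. The members were all probes whose platform annotation carried 1 of these 3 gene symbols. They comprised 4 probes printed as 8 spots: 1 probe for PPARA, 2 for PDK4 and 1 for ANGPTL4. All 3 genes could be tested, among 6958 tested genes in all.

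PPARA is a nuclear receptor that binds fatty acids and, paired with a retinoid X receptor, switches on genes of fatty acid oxidation and ketone body formation in the fasting liver. PDK4 is a kinase that phosphorylates and so shuts down the pyruvate dehydrogenase complex, which spares glucose when fat is the fuel. ANGPTL4 is a secreted protein that inhibits lipoprotein lipase, the enzyme that frees fatty acids from circulating triglyceride. Both are textbook target genes of PPARA, known mostly from rodents and human cells, and both are also driven by other regulators of the fasting state.

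The ketotic group held 7 cows and the healthy group 7 cows, all multiparous Holsteins early after calving, examined and found healthy on day 4. Ketotic cows received 50% of their earlier intake, starting on day 5 by the design text and on day 4 by the sample labels, and were kept on it until they showed clinical signs, for no longer than up to day 14. Healthy cows were their controls. Liver RNA of each cow was hybridised on 2 cDNA arrays with the dyes exchanged, each time against the same reference RNA made from cattle tissues, so that every value is a log2 ratio of liver over reference with the array median at 0. The direction of that ratio is likely rather than stated: it rests on the dyes in the sample titles and on the sign of hepatocyte genes. For 1 array of ketotic cow 1 the label fields name Cy5 for both channels, and its title and source names, which put liver in Cy5, were followed. Bulk liver was measured, and less RNA per cell and fewer cells of a type cannot be told apart in it.

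Of 14 hepatocyte genes 11 were measured, and the median over them in a cow ran from 5.58 to 7.44 in ketotic cows and from 3.47 to 7.70 in healthy cows. Their sign helped to set the direction of the ratio, so these positive values are no separate check of the labelled tissue. FGA, FGB and TAT were not among the tested genes. Healthy cow 7 stood apart from the rest. Across all probes its median correlation with its own group was 0.434, while the other 13 cows reached at least 0.876, and it held the lowest hepatocyte median, 3.47. Its median over 6 measured genes of stellate cells and fibroblasts was 0.63, above the other healthy cows (-2.16 to -0.19) and the ketotic cows (-2.84 to -1.73). The part of these differences in the results was not tested, and the members' differences, their agreement and the pathway list counts below are given with and without that cow. Macrophage genes were lower in ketotic cows for 3 of 4 measured (LAPTM5 -0.96, CD74 -0.88 and AIF1 -1.27). Hepatocyte genes were higher for 2 of 11, ALB at 1.62 and APOA1 at 0.86, with 10 of 11 differences positive (median 0.59). Of all tested genes, 0.92% were higher and 12.4% lower. With the arrays scaled to one spread, every measured hepatocyte gene had a negative difference, from -1.75 for APOB to -0.027 for APOA1, with ALB at -0.073. Leaving healthy cow 7 out, the macrophage count was the same, and 2 hepatocyte genes were higher and 1 lower, with a median of 0.29. In that fit 1.5% of all genes were higher and 18.4% lower. Their part in the results was not tested. Of the spots, 16.5% ± 4.49 had no usable ratio in ketotic cows and 11.9% ± 2.81 in healthy cows (SD, n = 7 each). The arrays of ketotic cows were also wider in spread. The median absolute deviation of their log2 ratios averaged 0.94 ± 0.12, against 0.76 ± 0.087 in healthy cows (SD, n = 7 each).

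None of the 3 genes passed the test between the groups, whereas 13.4% of all tested genes did: 0.92% were higher and 12.4% were lower in ketotic cows (limma with Benjamini-Hochberg adjustment over all 6958 genes, threshold 0.05). Without healthy cow 7, none of the 3 passed either, against 19.9% of 6878 genes (1.5% higher and 18.4% lower). Tested genes as a whole had a median difference of -0.18, so the 3 members lay above the middle of the table. ANGPTL4 showed the largest difference of the 3 and PPARA the smallest.

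PPARA, the receptor, lay at 0.81 in the lowest ketotic cow, 1.51 in the median one and 3.48 in the highest. In healthy cows the lowest value was -0.51, the median 1.66 and the highest 2.63. The groups overlapped almost entirely: ketotic cow 5 alone exceeded every healthy cow, healthy cow 7 lay below every other cow, and 3 of 7 ketotic cows were above the healthy mean. PPARA averaged 1.81 ± 0.88 in ketotic cows and 1.59 ± 1.06 in healthy cows (SD, n = 7 each). The difference of 0.22 (limma SE 0.469) had a 95% interval of -0.78 to 1.22 and an adjusted p of 0.813. By an exact two-sided permutation of the cows p was 0.696. Leaving out healthy cow 7 turned the difference to -0.13 (95% interval -0.93 to 0.66, limma adjusted p = 0.841).

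The 2 arrays of a cow gave different pictures of PPARA. With liver in Cy3, the mean ratio was 2.82 in ketotic cows and 1.85 in healthy cows, whereas with liver in Cy5 it was 0.81 in ketotic cows and 1.34 in healthy cows. Ketotic cow 5, the highest PPARA value of all, was the mean of 5.88 on its Cy3 array and 1.08 on its Cy5 array. Of all arrays, that Cy3 array had the largest share of spots with no usable ratio, 30.2%. It also had the widest spread, with a median absolute deviation of 1.24. The median gap between a cow's arrays was 1.11 for PPARA, wider than for 90.4% of the tested probes, whose own median was 0.441. Across cows, with group means removed, the PPARA values of the 2 arrays did not correlate detectably (r = 0.148, rho = 0.051, permutation p = 0.609 and 0.870, n = 14, and r = -0.102 without healthy cow 7). The Cy5 array minus the Cy3 array averaged -2.004 ± 2.117 in ketotic cows and -0.51 ± 1.10 in healthy cows, and the difference between these gaps did not pass an exact permutation test (p = 0.124, adjusted over 5 such tests 0.207). Of 55 PPARA spot values, 12 (21.8%) fell within 0.0006 of the log2 of a ratio of whole numbers up to 10, against 9.61% of all spots. Spot intensities were not used here, and the part of such values in the PPARA result was not tested.

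**Figure D1:**
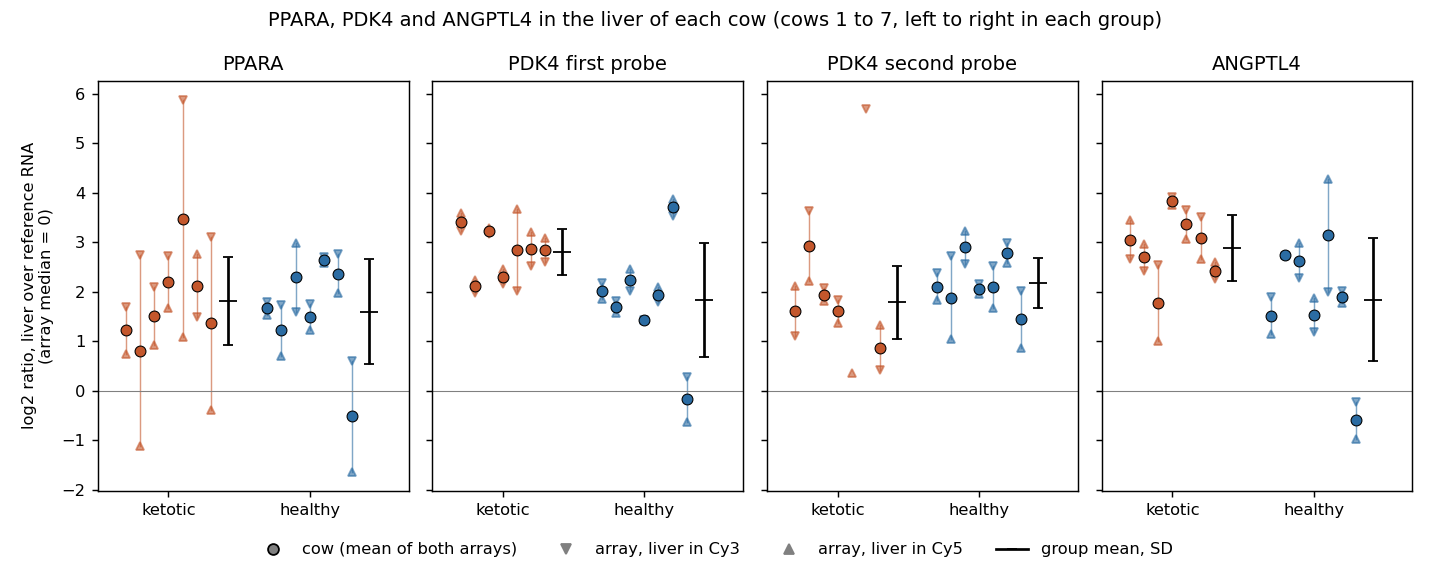
Log2 ratio of liver over reference RNA (array median at 0) for each probe of PPARA, PDK4 and ANGPTL4, ketotic cows left and healthy cows right; circles are cows 1 to 7 in order, triangles their arrays with liver in Cy3 (pointing down) and Cy5 (pointing up), and black bars the group mean with SD. The widest spans between a cow's arrays are those of PPARA, up to 4.80, and healthy cow 7 is the lowest circle in 3 of the 4 panels.

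PDK4, the pyruvate dehydrogenase kinase, had its lowest value at 1.86, its median at 2.51 and its highest at 2.71 in ketotic cows. Among healthy cows the lowest was 0.63, the median 2.02 and the highest 3.24. The ketotic cows lay within the range of the healthy ones, and 5 of 7 were above the healthy mean. PDK4 averaged 2.40 ± 0.35 in ketotic cows and 2.01 ± 0.80 in healthy cows (SD, n = 7 each), a difference of 0.39 (limma SE 0.307, 95% interval -0.26 to 1.05, adjusted p = 0.434). The exact permutation p was 0.264. Without healthy cow 7 the difference was 0.15 (95% interval -0.36 to 0.65, limma adjusted p = 0.713).

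That PDK4 value was a mean of 2 probes that differed in direction. The first probe stood at 2.11, 2.85 and 3.40 in the lowest, median and highest ketotic cow, against -0.17, 1.94 and 3.71 in the healthy cows. All 7 ketotic cows were above the healthy mean of 1.83, and none was above healthy cow 6, the highest of all at 3.71. Here the difference was 0.96 (limma SE 0.426, 95% interval 0.059 to 1.87), with an unadjusted p of 0.0384 and an adjusted p over all probes of 0.163, and the exact permutation p was 0.0530. It narrowed to 0.63 without healthy cow 7 and widened to 1.28 without healthy cow 6.

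The second PDK4 probe had a value in 5 ketotic cows and 7 healthy cows; it was missing on 1 array each of ketotic cows 5 and 6, whose PDK4 value thus came from the first probe alone. Its lowest, median and highest values were 0.87, 1.60 and 2.92 in ketotic cows, against 1.44, 2.09 and 2.90 in healthy cows. Only 1 of these 5 ketotic cows lay above the healthy mean. The difference was -0.39 (limma SE 0.332, 95% interval -1.11 to 0.32, adjusted p = 0.495), or -0.52 without healthy cow 7, and the exact permutation p was 0.305. The first probe exceeded the second by 0.99 ± 1.12 in 5 ketotic cows and by -0.35 ± 0.77 in 7 healthy cows, a difference of 1.34 with an exact permutation p of 0.0379 that did not pass after adjustment over 5 tests chosen after the values were seen (0.0947).

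The probes also differed in how well the arrays of a cow agreed. For the first PDK4 probe the Cy3 and Cy5 arrays correlated at r = 0.885 and rho = 0.666 across 14 cows (permutation, adjusted over 4 probes, p = 0.0117 and 0.0649), at r = 0.799 without healthy cow 7 and at r = 0.539 without the 2 cows farthest out. The second probe reached r = 0.340 and rho = 0.441 over 12 cows (permutation, adjusted p = 0.153 and 0.184). Between the first and the second probe r was 0.374 and rho 0.371 (permutation p = 0.203 and 0.267, n = 12), and r was 0.125 without healthy cow 7. Small-number ratios made up 3 of 53 spot values (5.66%) of the first probe and 8 of 45 (17.8%) of the second. The median gap between a cow's arrays was 0.335 for the first and 0.761 for the second.

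ANGPTL4, the lipoprotein lipase inhibitor, lay at 1.77 in the lowest ketotic cow, 3.05 in the median and 3.83 in the highest. The healthy cows ran from -0.60 through a median of 1.90 to 3.14. Ketotic cows 4 and 5 lay above every healthy cow, 6 of 7 ketotic cows lay above the healthy mean, and ketotic cow 3 lay below it. ANGPTL4 averaged 2.89 ± 0.67 in ketotic cows and 1.83 ± 1.24 in healthy cows (SD, n = 7 each). The difference was 1.05 (limma SE 0.478, 95% interval 0.037 to 2.07), and 1.05% of all tested genes differed by as much or more upwards. Its unadjusted limma p was 0.0432, a level under 0.05 that 28.4% of all genes reached, and its adjusted p of 0.161 did not pass. By exact permutation p was 0.0594, where 0.000583 is the smallest these group sizes allow.

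Healthy cow 7, at -0.60, was the only cow with a negative ANGPTL4 value and widened that difference. Without it the healthy cows ran from 1.51 to 3.14, the healthy mean was 2.24 and the difference 0.65 (95% interval -0.071 to 1.37, limma adjusted p = 0.193). On the arrays with liver in Cy3 ANGPTL4 averaged 2.99 in ketotic cows and 1.69 in healthy cows. With liver in Cy5 it averaged 2.79 in ketotic cows and 1.98 in healthy cows, so over all cows the direction was shared by both dyes. These healthy means include healthy cow 7, at -0.22 with liver in Cy3 and -0.97 with liver in Cy5. A cow's 2 arrays correlated at r = 0.692 and rho = 0.596 (permutation, adjusted over 4 probes, p = 0.0378 and 0.0649, n = 14), but at r = 0.387 without healthy cow 7 and at r = 0.279 without the 2 cows farthest out. Only 1 of 54 ANGPTL4 spot values (1.85%) was a small-number ratio.

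**Figure D2:**
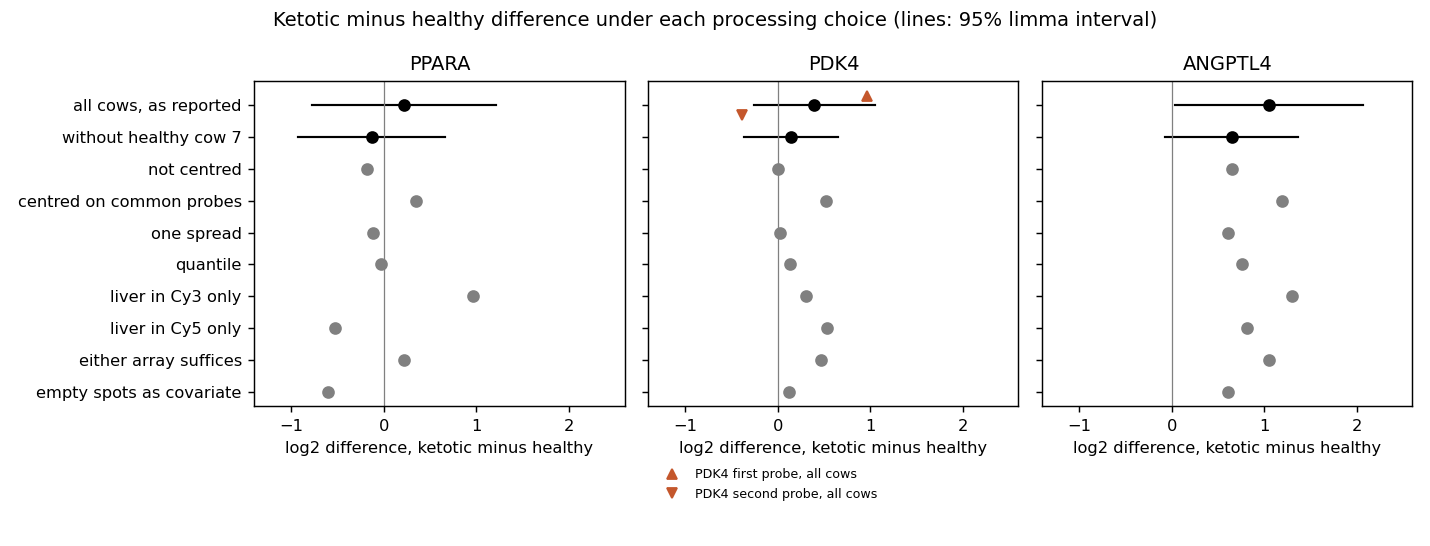
Log2 difference between ketotic and healthy cows (ketotic minus healthy, x axis) for PPARA, PDK4 and ANGPTL4 under each way of scaling the arrays, choosing dyes or treating cows (y axis); black points carry the 95% limma interval, grey points are values alone, and triangles give each PDK4 probe. ANGPTL4 is above 0 in every row (0.61 to 1.30), PPARA lies on both sides of 0 (-0.61 to 0.97), and the PDK4 probes sit at 0.96 and -0.39.

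Whether the genes moved together from cow to cow was asked with each group's mean removed, so that a shared group difference could not enter. Over all 14 cows PPARA correlated with ANGPTL4 at r = 0.738 and rho = 0.609 (permutation within groups, adjusted over the 3 pairs, p = 0.0237 and 0.0808). With PDK4, PPARA correlated at r = 0.661 and rho = 0.499 (permutation, adjusted p = 0.0338 and 0.119). The 2 target genes correlated with each other at r = 0.481 and rho = 0.209 (permutation, adjusted p = 0.175 and 0.501). Thus 2 of 3 pairs passed by r and 0 of 3 by rho.

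These relations rested on few cows. Healthy cow 7 lay below its group mean by the widest margin for every one of the 3 genes, at -2.11 for PPARA, -1.37 for PDK4 and -2.43 for ANGPTL4. Without it, r was 0.469 for PPARA with ANGPTL4, 0.365 for PPARA with PDK4 and -0.099 for PDK4 with ANGPTL4, and no pair passed (permutation, adjusted p = 0.281, 0.281 and 0.768, n = 13). Without the 2 cows farthest out on the first gene, the same pairs gave r = 0.451, 0.325 and 0.030, and again none passed (permutation, adjusted p = 0.491, 0.512 and 0.931, n = 12).

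Within the 7 ketotic cows alone, r was 0.525 for PPARA with ANGPTL4, 0.228 for PPARA with PDK4 and -0.134 for PDK4 with ANGPTL4, and no pair passed (exact permutation, adjusted p = 0.607, 0.796 and 0.796). In the 7 healthy cows r was 0.854, 0.855 and 0.626 for the same pairs (exact permutation, adjusted p = 0.0869, 0.0869 and 0.160). Those healthy values fell to 0.402, 0.612 and -0.079 in the 6 healthy cows besides cow 7 (exact permutation, adjusted p = 0.608, 0.608 and 0.886). Taking the first PDK4 probe alone, PPARA with PDK4 reached r = 0.611 over all cows (permutation, adjusted p = 0.0731) and 0.250 without healthy cow 7 (permutation, adjusted p = 0.544).

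Cow by cow, all 3 genes lay above their own group's mean in 2 ketotic cows (5 and 6) and in 3 healthy cows (3, 5 and 6). None of the 3 did so in 1 ketotic cow (7) and in 2 healthy cows (4 and 7). The PDK4 part of this count depended on the probes. Ketotic cows 5 and 6 had a value of the first PDK4 probe alone, which was 2.84 and 2.86 against a ketotic mean of 2.80. On that same probe ketotic cow 7 stood at 2.85, also above the mean. The remaining 4 ketotic and 2 healthy cows were mixed: ketotic cow 4 had the highest ANGPTL4 of all cows and the second lowest PDK4 of its group, and ketotic cow 3 the lowest ANGPTL4 of its group with PDK4 above the group mean.

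**Figure D3:**
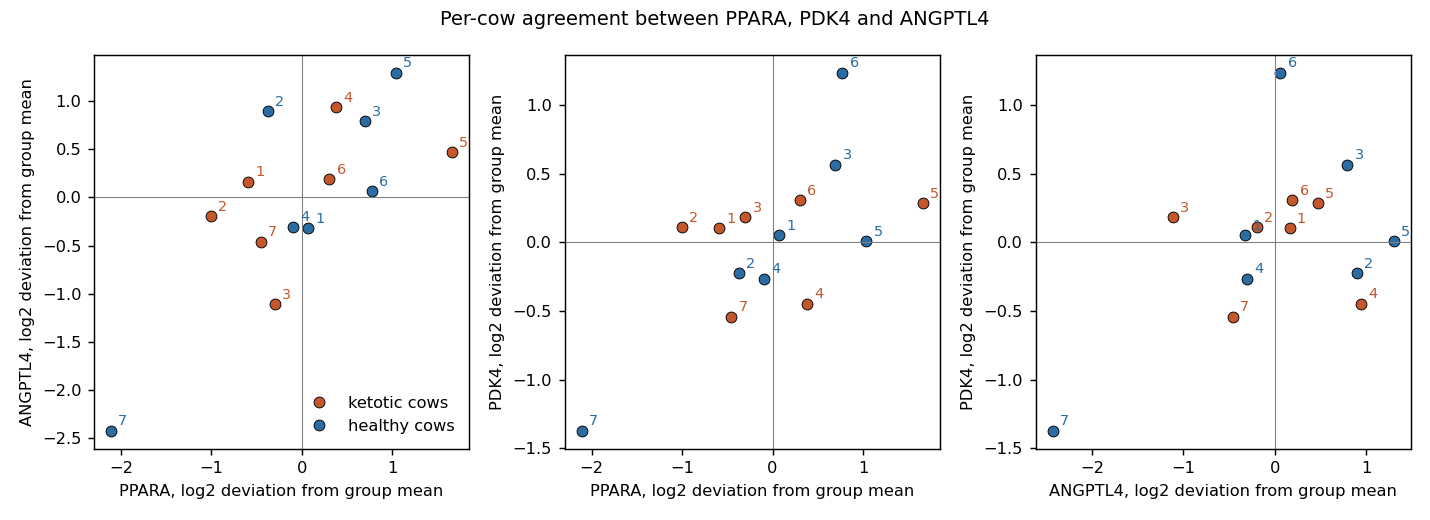
Each cow's log2 deviation from its group mean for 1 gene against another among PPARA, PDK4 and ANGPTL4; orange points are ketotic and blue points healthy cows, numbered as in the text. Healthy cow 7 lies far to the lower left in every panel, and without it r is 0.469, 0.365 and -0.099 from the left panel to the right.

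Among 6400 genes with values in at least 12 of the 13 cows besides healthy cow 7, the genes whose cow-to-cow pattern was most like a member's were other ones. For PPARA these were RETREG3 (r = 0.923), QPCTL (0.915), NME3 (0.845), HAVCR1 (0.840) and FBXO25 (0.808), while ANGPTL4 came at rank 448 and PDK4 at rank 789. PDK4 was most alike to CERCAM (r = 0.856), ALS2CL (0.815), HDHD5 (0.795), AKIRIN1 (0.783) and CCL3 (0.783), with PPARA at rank 805 and ANGPTL4 at rank 4009. ANGPTL4 had FANCF (r = 0.812), UFC1 (0.810), ZNF584 (0.810), KHK (0.799) and DNAJC4 (0.783) nearest, with PPARA at rank 301 and PDK4 at rank 3944. These are the top of a ranking over 12 or 13 cows that share arrays and reference, given as a description. None of these 15 genes passed the test between the groups, which 13.4% of all tested genes did. So few genes do not set them apart from that share.

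The members and the genes around them were taken as 8 lists of 136 genes, of which 78, the 3 members included, were measured. Of these, 1 was higher and 9 were lower in ketotic cows, and 68 did not pass, with a median difference of -0.03 against -0.18 for all tested genes; 10 of 78 is close to the 13.4% of the whole table. Without healthy cow 7 the counts were 1 higher and 16 lower of 78, where 1.5% of all genes were higher and 18.4% lower, and the median was -0.21 against -0.19 for all genes.

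In the list of the receptor, its partners and coregulators, 0 of 10 measured genes passed with all cows and 1 of 10, NCOA1, lower, without healthy cow 7 (-0.93, limma adjusted p = 0.00356). Of all tested genes, 13.4% and 19.9% passed in the same fits. PPARD, a related receptor for fatty acids, came nearest among all cows with 0.38 (SE 0.127, limma adjusted p = 0.0609), with values of 0.26 to 0.68 in ketotic cows and -0.27 to 0.27 in healthy cows. PPARG was not among the tested genes. PPARGC1A, the coactivator induced in liver by fasting, differed by 0.44 (limma adjusted p = 0.279), and HNF4A, a master regulator of hepatocyte genes, by 0.49 (0.404), or 0.18 without healthy cow 7 and -0.089 with the arrays scaled to one spread. Among other regulators of PDK4 and ANGPTL4, 0 of 11 passed with all cows, and the smallest p belonged to AKT1, a kinase of insulin signalling, at -0.39 (SE 0.130, limma adjusted p = 0.0564). With healthy cow 7 left out, 1 of 11 passed: EPAS1, a hypoxia-inducible factor, at -0.96 (limma adjusted p = 0.0210), against -0.77 with all cows (0.112).

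Around PDK4, 0 of 9 measured genes of the pyruvate dehydrogenase system were higher in ketotic cows and 3 were lower, where 0.92% of all genes were higher and 12.4% lower; the count was the same without healthy cow 7. PDHB, a subunit of the complex's first enzyme, fell by 0.79 (SE 0.197, limma adjusted p = 0.0197), with -1.20 to 0.07 in 7 ketotic cows and 0.34 to 0.69 in 6 healthy cows. MPC2, a subunit of the carrier that brings pyruvate into mitochondria, fell by 0.81 (SE 0.195, limma adjusted p = 0.0152), with -0.69 to 0.43 in ketotic cows and 0.24 to 1.11 in healthy cows. PDK3, a kinase of the same family as PDK4, fell by 1.23 (SE 0.346, limma adjusted p = 0.0334), measured in 5 ketotic and 7 healthy cows. MPC2 and PDK3 kept their direction and their call without healthy cow 7 (-0.91 and -1.01), which had no PDHB value. PDK1 and PDK2 were not among the tested genes.

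Around ANGPTL4, 2 of 8 measured genes of the lipoprotein lipase system were lower in ketotic cows and none was higher, where 12.4% of all genes were lower and 0.92% higher. LIPC, the hepatic lipase, fell by 1.64 (SE 0.484, limma adjusted p = 0.0398, 6 cows in each group), with 2.65 to 5.18 in ketotic cows and 4.25 to 6.95 in healthy cows, cow 7 having no value. LRP1, a receptor that clears lipoprotein remnants, fell by 0.38 (SE 0.121, limma adjusted p = 0.0468), or by 0.37 without healthy cow 7 (0.0394). The list's count without that cow was again 2 lower of 8, where 18.4% of all genes were lower. APOA5, an apolipoprotein that aids lipoprotein lipase, differed by 1.05 (limma adjusted p = 0.223), or 0.56 without healthy cow 7 and 0.056 with one spread for all arrays. LPL itself was not among the tested genes.

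**Figure D4:**
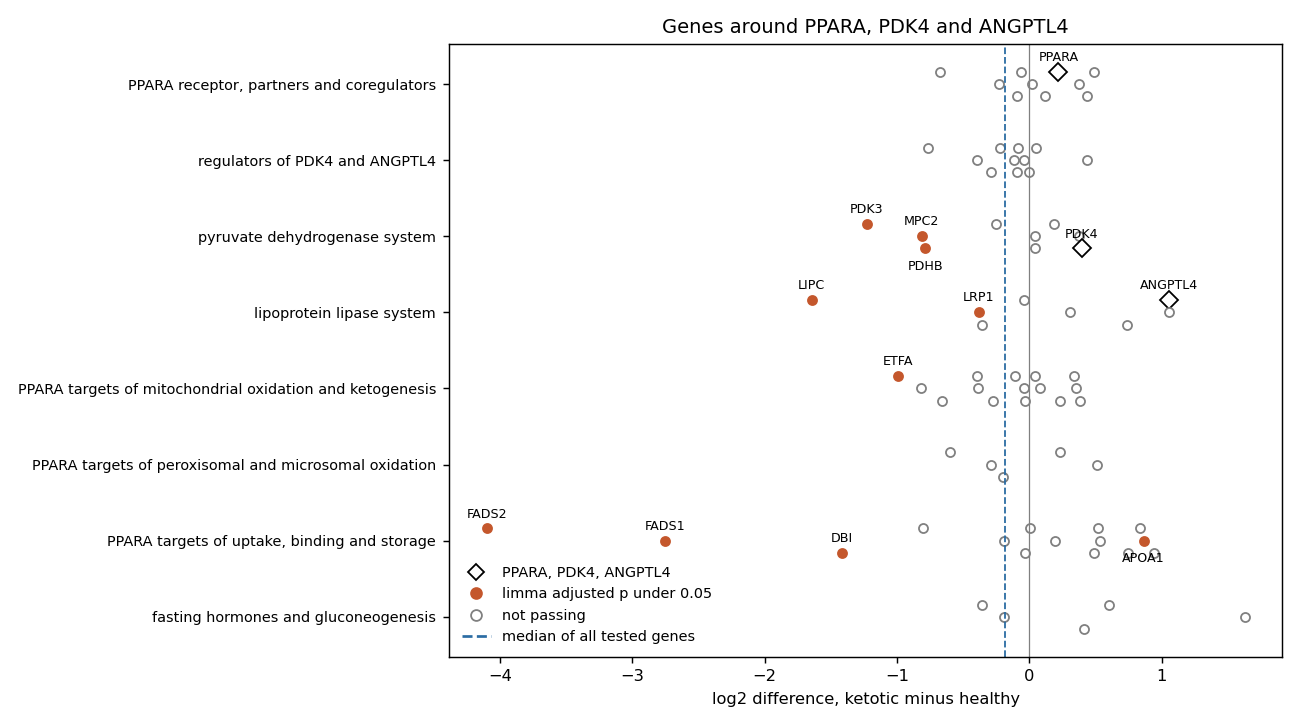
Log2 difference (ketotic minus healthy, x axis) of every measured gene in 8 lists (y axis); diamonds mark PPARA, PDK4 and ANGPTL4, orange circles genes that passed limma's test, open circles genes that did not, and the dashed line is the median of all tested genes. The 9 lower genes include 3 of the pyruvate dehydrogenase system and 2 of the lipoprotein lipase system; APOA1 alone passed as higher.

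Among the known targets of PPARA, the mitochondrial oxidation and ketogenesis list had 0 of 15 measured genes higher and 1 lower, with a median of -0.04 against -0.18 for all genes. Of all genes, 0.92% were higher and 12.4% lower. Once healthy cow 7 was left out, 3 of 15 were lower, where 18.4% of all genes were. The median was then -0.32 against -0.19, so the list moved from above to below the middle of the table. The gene lower in both was ETFA, a carrier of electrons from fatty acid oxidation, which fell by 0.99 (SE 0.254, limma adjusted p = 0.0203) and by 1.14 without healthy cow 7. HADH, an enzyme of fatty acid oxidation, differed by -0.82 (limma adjusted p = 0.0754) with all cows and by -0.99 (0.0159) without that cow. CPT1A, which admits long-chain fatty acids to mitochondria, differed by -0.39 (limma adjusted p = 0.388) with all cows and by -0.61 (0.0480) without healthy cow 7. In the peroxisomal and microsomal list 0 of 5 passed with all cows, and ABCD3, a peroxisomal transporter, differed by -0.60 (SE 0.195, limma adjusted p = 0.0550). It was the 1 of 5 that passed without healthy cow 7 (0.0350), but that cow had no ABCD3 value and the difference itself was the same, so only the moderated error and the adjustment changed.

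For uptake, binding and storage of fatty acids, 1 of 15 measured targets was higher and 3 were lower, where 0.92% of all genes were higher and 12.4% lower. The list's median was 0.19 against -0.18 for all genes. Without healthy cow 7, 1 was higher and 5 were lower, where 1.5% of all genes were higher and 18.4% lower. The median was then -0.026 against -0.19. The added genes were CD36, a fatty acid transporter (-0.44, limma adjusted p = 0.0486, against -0.036 with all cows), and ACSL5, which activates fatty acids (-1.06, 0.00666, against -0.80). FADS2 and FADS1, the desaturases that make long polyunsaturated fatty acids, fell by 4.10 (SE 0.974, limma adjusted p = 0.0147) and 2.75 (SE 0.545, limma adjusted p = 0.00776, 5 ketotic cows) (-4.399 and -2.873 without healthy cow 7). The groups overlapped for both. FADS2 ran from -3.906 to 4.85 in ketotic cows and from 2.88 to 5.905 in healthy cows. FADS1 ran from -3.644 to -0.015 in ketotic cows and from -0.868 to 1.11 in healthy cows. DBI, which binds acyl-CoA, was the third, at -1.42 (limma adjusted p = 0.0185), and the higher gene was APOA1, the main protein of high-density lipoprotein, at 0.86 (limma adjusted p = 0.0208), or -0.027 with one spread; both were singled out after their values were seen and passed without healthy cow 7 too (-1.60 and 0.74). Of the fasting hormones and gluconeogenic genes 0 of 5 passed with all cows or without healthy cow 7, and IGFBP1, a liver protein that binds insulin-like growth factors, came nearest at 1.63 (SE 0.570, limma adjusted p = 0.0718), or 1.15 without healthy cow 7 and 0.16 with one spread. Adipocyte and skeletal muscle cells, where PDK4 and ANGPTL4 are also known to be active, were represented by 2 of 6 and 2 of 8 measured markers, and none of these 4 passed. LEP, an adipocyte hormone, differed by 1.10 (limma adjusted p = 0.261), measured in 5 cows of each group, too few for a test without healthy cow 7. The part of such cells in the results was not tested.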

How the data were processed

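Each deposited value was read as a log2 ratio of Cy5 over Cy3 for 1 spot, from the values and the dyes in the titles, since the labels state neither the log base nor the direction. Of the authors' own scanning, filtering and normalisation, nothing was given in the sources used here. The sign was turned on arrays with liver labelled Cy3. Values at a ceiling of 16.61 (log2 of 100000) were read as missing. The 27648 spots were averaged in adjacent pairs to 13824 probes, and each array was centred on its median. A cow's value was the mean of its 2 arrays, both required, and a probe needed 5 cows in each group. Genes with several probes took the mean of those probes, after centring each over cows. Gene names came from the platform annotation, updated through the table of assembly ARS-UCD2.0; no coordinates or sequences are printed.

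Groups were compared with limma 3.58.1 (lmFit and eBayes, R 4.3.3) on 14 cows, two-sided, with Benjamini-Hochberg adjustment over 6958 genes and a threshold of 0.05. Exact permutation tests ran over 3432 arrangements of the cows, or over 792 for the gap between the first and the second PDK4 probe. Correlations across cows used group-centred values, with 100000 permutations within groups (all pairings for 1 group alone). The fit was tested on simulated data with independent normal values. These held no outlying cow and no difference in spread between the groups, so that test does not cover either feature. Named genes were the members, up to 2 passing genes of each list by smallest p (otherwise the gene with the smallest p), all measured PDK and PPAR genes, and the 5 genes most like each member; PPARGC1A, HNF4A, NCOA1, EPAS1, APOA5, CPT1A, HADH, CD36, ACSL5, DBI, APOA1, LEP and the marker genes were added after their values were seen. Members and lists were chosen with earlier results of these data known. The number of cows, 7 in each group, limits the precision, and the labels give no hybridisation batch. Alternatives covered scaling, dyes, filters, model, covariate and each cow left out.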

Additional observations from a re-analysis of the deposited data

Results flagged for a closer look

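In the search of the members and named genes for a cow far from the rest of its group, 38 groups of cows were examined, and chance alone would mark about 1 in 20, or 1.9 of them. Only 2 were marked, both in healthy cow 7. PPARD was -0.27 in that cow, with the nearest healthy cow at 0.056. IGFBP1 was 3.91 in it, with the nearest healthy cow at 6.56. Without it the PPARD difference was 0.31 (limma adjusted p = 0.0552) and the IGFBP1 difference 1.15 (limma adjusted p = 0.0618). PPARA, PDK4 and ANGPTL4 were not marked in either group.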

How the results depend on the processing

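ANGPTL4 kept its direction and stayed short of the threshold under all 13 alternatives (0.61 to 1.30) and with each cow left out (0.65 to 1.27). Its difference was smallest with one spread and with empty spots as a covariate, 0.61 in each (limma adjusted p = 0.501 and 0.630). PPARA stayed short of it too, but turned negative without centring (-0.18), with one spread (-0.12), under quantile scaling (-0.032), with liver in Cy5 only (-0.53) and with empty spots as a covariate (-0.61); with each cow left out it ran from -0.13 to 0.39 and was negative in 2 of 14, without healthy cow 7 (-0.13) or ketotic cow 5 (-0.058). PDK4 was -0.0010 without centring, 0.025 with one spread, 0.13 under quantile scaling, 0.12 with the covariate, 0.96 by its first probe alone and -0.39 by its second; with each cow left out it ran from 0.15 to 1.08, the upper end where the second probe fell below 5 ketotic cows and left the gene's value. Without centring the median of all genes was -0.58. Against 929 genes passing, there were 2477 without centring, 616 centred on probes measured on every array, 550 with one spread, 562 under quantile scaling, 12 with liver in Cy5 only and 168 with the covariate; with each cow left out, 652 to 1368. Against 10 listed genes passing, there were 20 without centring, 0 with liver in Cy5 only, 6 where either array sufficed and 1 with the covariate; with each cow left out, 7 to 17 (17 without healthy cow 7). PPARA with PDK4 (r = 0.661) no longer passed by rho (0.499), in ketotic cows (0.228), healthy cows (0.855) or healthy cows besides cow 7 (0.612), without the 2 farthest cows (0.325), uncentred (0.650), with one spread (0.661), under quantile scaling (0.608), where either array sufficed (0.350), or by the first PDK4 probe (0.611, or 0.250 without healthy cow 7), and was -0.091 with liver in Cy3 only. PPARA with ANGPTL4 (r = 0.738) no longer passed by rho (0.609), in ketotic cows (0.525), healthy cows (0.854) or healthy cows besides cow 7 (0.402), without the 2 farthest cows (0.451), uncentred (0.741), with one spread (0.745), under quantile scaling (0.718), or with liver in Cy3 only (0.388) or Cy5 only (0.573). PDK4 with ANGPTL4 (r = 0.481) was -0.134 in ketotic cows, -0.079 in healthy cows besides cow 7 and -0.212 by the first probe without healthy cow 7, and passed with group means kept (0.556). With each cow left out, r ran from 0.365 to 0.718, 0.469 to 0.809 and -0.099 to 0.599 for these pairs, with healthy cow 7 at the lower end each time. PPARA with PDK4 also fell short without ketotic cow 5 or without healthy cow 2, 3 or 4 (permutation, adjusted p = 0.0513 to 0.0686). The first-probe correlations, the healthy cows besides cow 7 and each PDK4 probe under other settings were added after seeing the data. The first probe stayed positive (0.56 to 1.27) and the second negative (-0.80 to -0.020) in 9 of 9 other scalings and dye or filter settings. The cause of these changes was not tested, except where the second probe left or entered the PDK4 value. It entered where either array sufficed, for ketotic cows 5 (0.36) and 6 (5.68), each from 1 array. No paired analysis was possible because the cow numbers only name cows and pair none across the groups.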
